A study of Homo sapiens with 19 samples.

Results

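The regions described here are the 421 intervals of the untreated wild-type V5 list that overlapped, by at least 1 base, an interval in every one of the 7 other V5 lists. They made up 2.79% of the 15099 intervals of that list, and the 10 lists of the series hold 203381 intervals in all. An interval is a stretch of the genome where MACS2, a peak caller, found more reads than its local background predicts. The 421 members were chosen by their presence in the 8 V5 lists, so their V5 strength is given as a description and supports nothing. The 2 RB lists took no part in the choice.

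The study mapped V5-tagged E2F1 and RB by chromatin immunoprecipitation and sequencing (ChIP-seq) in 19 libraries of 10 groups. All cells were established prostate cancer lines, C4-2 or VCaP, kept in medium with charcoal-stripped serum, which is depleted of androgens. The V5 groups, precipitated with an anti-V5 antibody, were C4-2 lines with a tetracycline-controlled E2F1, either the K185R mutant (a lysine replaced by arginine) or wild type (WT). Each line was given doxycycline followed by the LSD1 inhibitor GSK2879552 (GSK), GSK alone, doxycycline alone, or neither, with 2 libraries per group. Doxycycline was used at 0.25 ug/ml for 3 days and GSK at 50 uM for 24 hours. The RB groups, with an anti-RB antibody and no treatment, were C4-2 with 2 libraries and VCaP with 1. The labels do not say whether a V5 line is a single clone, or whether tagged E2F1 was present without doxycycline. The V5 list names carry siNTC and siRB where the treatment labels read untreated and doxycycline, and the groups here follow the labels.

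E2F1 is a transcription factor that binds the promoters of genes for DNA replication and cell division, while RB, a pocket protein, binds E2F factors and holds them inactive. LSD1 (KDM1A) removes methyl groups from histone tails and is known mainly as a co-repressor. Centromeres consist of long arrays of tandem repeats. In the hg19 build they are placeholder gaps, so reads from many unassembled copies can collect on the few copies placed at the gap edges. Such flanks, together with telomeric ends and the mitochondrial genome, are well known to collect reads in many ChIP experiments whatever the antibody.

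Each group has 1 deposited list, so no value below carries replicate error and no p-value was computed. From the authors' fold and −log10 p of an interval, the reads at its summit and its local background were solved. In each list the smallest background value found for 5 or more intervals is called the floor, and it stands for the genome-wide expectation. Depth, as the floor per kilobase, ran between 0.716 reads in the WT GSK list and 1.79 reads in the K185R untreated list, with 2.98 reads for VCaP RB and 8.21 for C4-2 RB. List lengths ran between 2805 intervals in WT with GSK and 64025 in WT with doxycycline. Wilson intervals (95%) cover counting error over intervals only, and PCR reads without molecular identifiers are not independent molecules. They also take intervals as independent, although 216 of the 421 members lay in 13 groups of at least 10 joined within 1 Mb. The Wilson bounds can therefore be too narrow.

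The common intervals stood apart from the rest of their list in RB overlap, place and background. Of the 421 members, 354 (84.1%, Wilson 80.3 to 87.3) overlapped a C4-2 RB interval, against 879 of the 14678 other intervals (5.99%, Wilson 5.62 to 6.38) and 8.17% of the whole list. For VCaP RB the count was 142 members (33.7%, Wilson 29.4 to 38.4), against 525 others (3.58%) and 4.42% of the whole list. Both RB lists met 139 members (33.0%), where 3.71% of the whole list met both. C4-2 RB alone met 215 members and VCaP RB alone met 3. The other 64 members (15.2%) met neither RB list. At least 1 RB list met 357 members, 84.8%, against 8.87% of the whole list. C4-2 is also the line of all V5 lists, and the RB lists differ in depth and length, so these cannot be told apart from the cell line in the gap between the C4-2 and VCaP shares.

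These shares climbed with the number of other V5 lists that held an interval. The untreated WT list had 8528 intervals held by none of the other 7 lists, 3796 by 1, 1228 by 2, 484 by 3, 254 by 4, 223 by 5, 165 by 6, and the 421 members by 7. The share overlapping C4-2 RB was 1.97%, 3.79%, 10.7%, 26.4%, 40.9%, 46.2%, 61.2% and 84.1% in that order. The VCaP RB share was 1.81%, 3.19%, 7.98%, 14.3%, 13.4%, 12.6%, 12.7% and 33.7%. The C4-2 share thus climbed at every step, whereas the VCaP share stayed flat between 3 and 6 lists and was higher only in the full set of 7. Median summit reads in the untreated WT list were 5 for intervals held by 0, 1 or 2 other lists, 15 for those held by 6, and 43 for the members. Median width ran in the same direction, at 161 bases for intervals in no other list, 259 bases for those in 6, and 288 bases for the members.

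**Figure D1:**
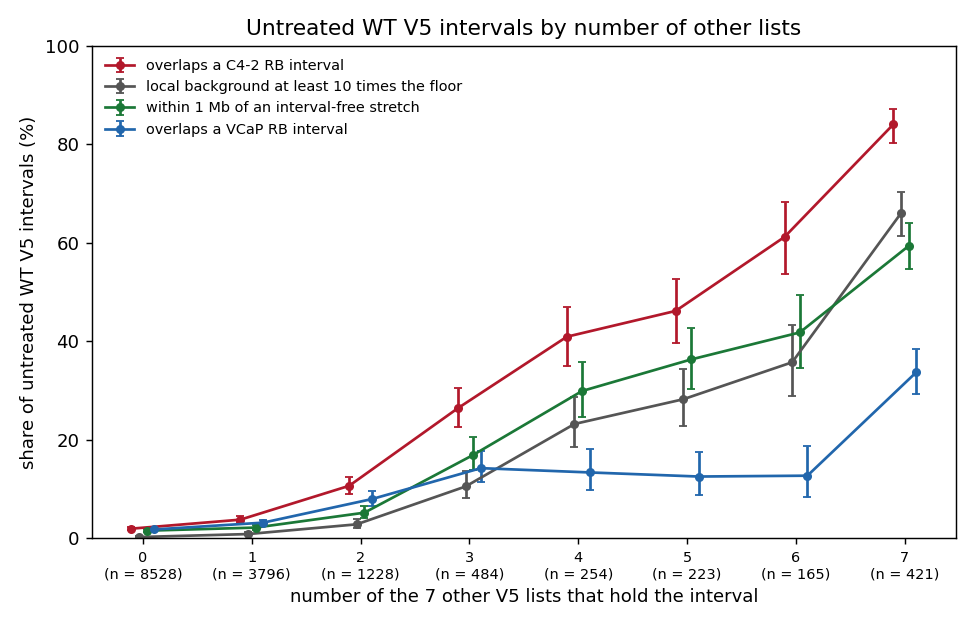
Share of untreated WT V5 intervals (vertical axis, percent) by the number of other V5 lists that hold them (horizontal axis), with 95% Wilson bars that cover counting error only. All 4 shares are highest at 7 lists, where they reach 84.1% for C4-2 RB overlap, 66.0% for high background, 59.4% for nearness to an interval-free stretch and 33.7% for VCaP RB overlap.

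Common intervals filled the top of every V5 list, though not every one was strong. Ranked by the authors' −log10 q, the top 100 intervals that overlapped a common interval numbered 100 in each of the 4 K185R lists. In the WT lists they numbered 98 with doxycycline and GSK, 99 with GSK, 99 with doxycycline and 100 untreated. The top of each V5 list was thus almost entirely made of regions called under every treatment and with both forms of E2F1. By the next 900 ranks the share had thinned, and the first 1000 intervals held 364 to 405 that overlapped a common one. The RB lists had not chosen the members. Of the top 100 C4-2 RB intervals 73 overlapped a common interval, against 4.38% of that whole list. For VCaP RB it was 36 of the top 100, against 0.811%. A background at least 10 times the floor was found for 41.4% of the overlapping C4-2 RB intervals and 3.10% of the rest. In VCaP RB it was found for 42.8% and 0.894%.

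In whole V5 lists the weight of the common intervals followed list length. For the share of intervals this was set by the rule, which left 421 to 426 intervals overlapping common ones in each V5 list. The intervals overlapping them were 12.1%, 4.30%, 1.91% and 0.765% of the K185R lists with doxycycline and GSK, GSK, doxycycline, and no treatment. For the WT lists in the same order the shares were 10.9%, 15.1%, 0.658% and 2.79%. They held more of the reads than of the intervals. Summed over summits, they carried 57.3% of the reads in the shortest list, WT with GSK, and 7.90% in the longest, WT with doxycycline. In the untreated WT list they carried 23.9%.

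**Figure D2:**
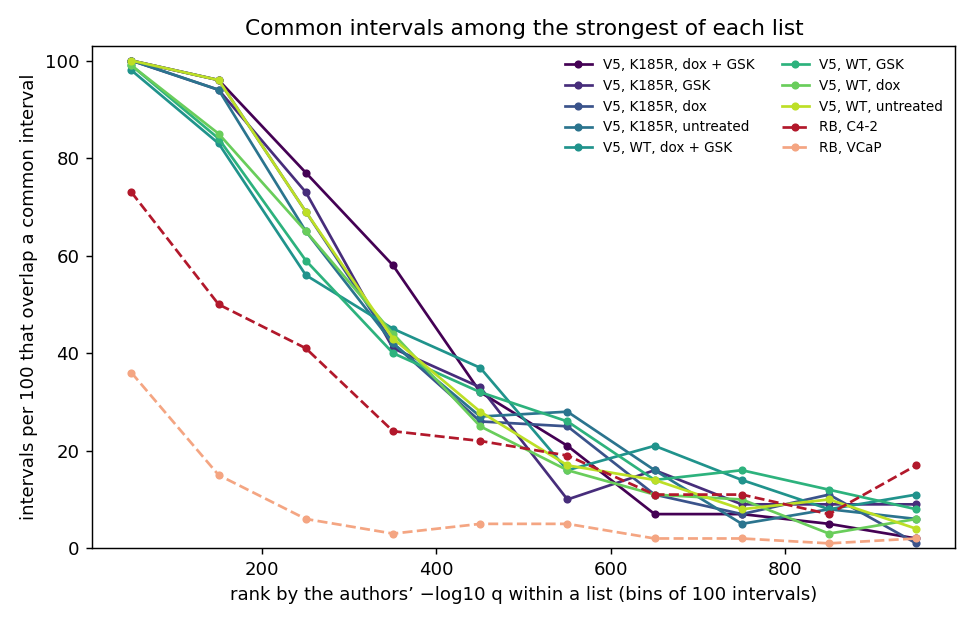
Number of intervals per 100 that overlap a common interval (vertical axis) in bins of 100 by rank of the authors' −log10 q (horizontal axis), one line per list, RB lists dashed. The V5 lines start at 98 to 100, and the dashed lines at 73 for C4-2 RB and 36 for VCaP RB.

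Most common intervals lay within 1 Mb of large empty stretches of the genome. No hg19 sequence was used here, so gaps were read from the lists themselves as stretches of at least 500 kb without an interval in any of the 10 lists. There were 35 such stretches, and 6 of them started at the first base of their chromosome. Stretch ends are therefore set by the outermost intervals, the members among them. The longest on most chromosomes spans the centromere, while on Y the longest, 30.0 Mb, lies in the long arm. Within 1 Mb of a stretch lay 250 members (59.4%, Wilson 54.6 to 64.0), against 588 of the other intervals (4.01%) and 5.55% of the whole list. Within 100 kb lay 139 members, 33.0%, against 2.36% of the whole list. Leaving out intervals within 10 kb of a stretch, the share was 54.4% of 375 members, against 4.87% of the whole list. The median distance was 0.634 Mb for the 419 members on chromosomes with a stretch and 34.8 Mb for the 14677 other intervals. Of the 35 stretches, 24 had a member within 1 Mb.

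**Figure D3:**
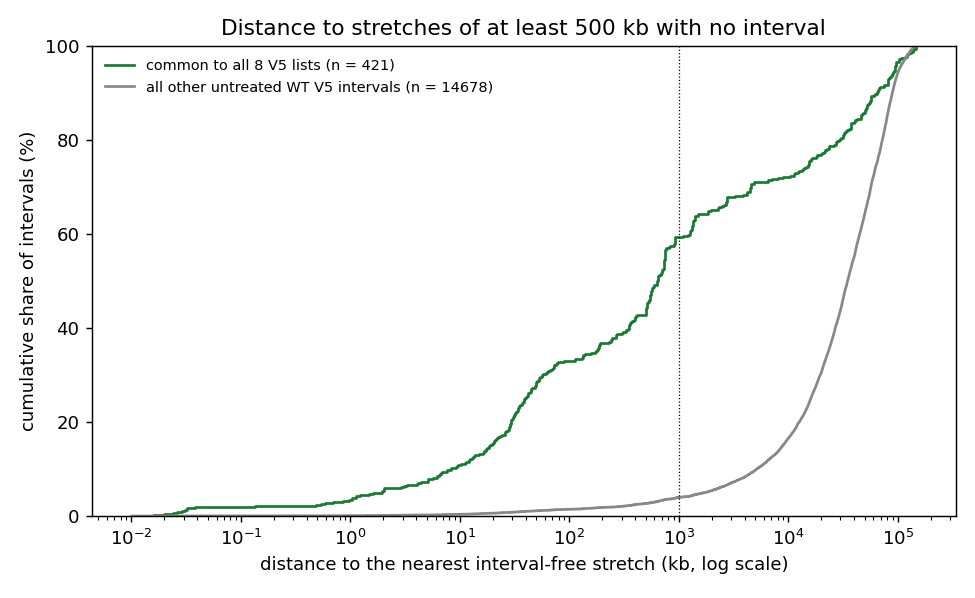
Cumulative share of intervals (vertical axis, percent) by distance to the nearest interval-free stretch (horizontal axis, kb, log scale), for the members and for the other untreated WT V5 intervals. At the dotted line, 1 Mb, the members' curve stands at 59.4% and the other at 4.01%.

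The members were crowded into few places. Joined where they lay within 1 Mb of each other, they formed 141 clusters, of which 89 held a single member. The 13 clusters of at least 10 held 216 members, 51.3%, and 11 of these 13 had a member near a stretch. The densest was on chromosome 10 at 42356069 to 42662994 (hg19), with 35 members on the long-arm side of a 3.20 Mb stretch that starts at 39154913 and ends at 42355482. On its other side lay a cluster of 12, at 38777983 to 39138315. The next in size held 26 members on chromosome Y (13137805 to 13869486), 24 on chromosome 16 (46386741 to 46500351) and 22 on chromosome 4 (49093704 to 49659845). All 4 of these largest clusters start or end within 1 Mb of a stretch.

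Chromosomes differed accordingly. Chromosome 10 held 54 members, 12.8% of them against 5.15% of the whole list, and chromosome Y held 30, 7.13% against 0.788%. Chromosome 9 held 29 members but none within 1 Mb of a stretch. Its 13 members at 66783183 to 67974633 and 8 at 69708561 to 70327640 lie beyond 1 Mb from its 18.2 Mb stretch. At the other end, chromosomes 13 and 15 held 2 members each, and neither had one near a stretch. The classes by distance therefore miss some dense groups, such as those of chromosome 9.

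Members away from stretches included the ends of the assembly. Within 100 kb of the first base or the last interval of a chromosome lay 13 members not near a stretch, 10 of which overlapped C4-2 RB and 3 VCaP RB. One lay on chromosome 18 at 10055 to 10520, where the V5 fold ran between 10.8 and 14.0, and another on chromosome 12 at 133841497 to 133841966, where it ran between 11.3 and 18.5. A pair of members lay on the mitochondrial genome, at 5 to 533 and 16081 to 16558, and both overlapped both RB lists. The first of these had the lowest ratio with over without doxycycline of all 421 members. Its fold was 4.49 in K185R with doxycycline and GSK, 8.67 with GSK, 4.95 with doxycycline and 9.31 untreated. In WT the same interval had folds of 5.08, 7.77, 4.98 and 5.58 in that order. It was lower with doxycycline in all 4 matched pairs of lists.

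High local background marked most members. A background at least 10 times the floor of the untreated WT list was found for 278 members (66.0%, Wilson 61.4 to 70.4), against 323 of the other intervals (2.20%) and 3.98% of the whole list. Members were 46.3% of all 601 intervals of high background in that list. Over all 8 V5 lists, background was high in every list for 267 members, low in every list for 127, and mixed for 27. The classes also differed in place. Near a stretch lay 222 of the 267 (83.1%) with high background, against 14 of the 127 (11.0%) with low background.

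RB overlap was read again within these classes. Of the 267 members of high background, 250 (93.6%) overlapped C4-2 RB and 119 (44.6%) VCaP RB. Of the 127 of low background, 78 (61.4%) overlapped C4-2 RB and 20 (15.7%) VCaP RB. Set against other untreated WT intervals on the same side of 10 times the floor and of 1 Mb, members still had the higher RB shares. These classes are broad. Median background was 2.81 times the floor for the 127 members of low background, and 1.16 times for intervals in no other V5 list. With high background and within 1 Mb of a stretch, 212 of 228 members (93.0%) overlapped C4-2 RB, against 182 of 267 others (68.2%). VCaP RB met 45.2% of these members and 16.9% of these others. With low background and away from stretches, 72 of 121 members (59.5%, Wilson 50.6 to 67.8) overlapped C4-2 RB, against 586 of 14034 others (4.18%). VCaP RB met 15.7% of these members and 3.31% of these others. Over the whole list members had a median of 43 summit reads and the others 5, and the part of strength in these shares was not tested.

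The RB intervals that met a common interval were themselves of a particular kind. They numbered 401 of the 9146 C4-2 RB intervals (4.38%) and 138 of the 17026 VCaP RB intervals (0.811%). In C4-2 their median RB fold was 7.08, against 5.66 for the rest of that list, with medians of 58 and 14 summit reads. Their median background was 6.03 times the floor, against 1.91 times for the rest. In VCaP the median fold was 6.78 against 5.50, the median summit reads 55 against 12, and the median background 7.42 against 2.01 times the floor.

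Across treatments the fold of the whole set moved little. The median fold of the 421 members in the K185R lists was 6.49 with doxycycline and GSK, 6.63 with GSK, 7.19 with doxycycline and 7.59 untreated. In WT it was 6.59, 6.58, 6.98 and 7.23 in that order. The median folds over each whole list ran between 4.69 and 5.19. On summit reads divided by the floor, the members' medians ran between 179.9 in K185R untreated and 233.8 in K185R with doxycycline. In that pair 359 of the 421 were higher with doxycycline and 62 lower. In the same pair of WT lists 110 were higher and 311 lower. Depth was 1.12 reads per kb with doxycycline and 1.79 untreated in K185R, and 1.40 and 1.21 in WT. In both pairs most members were thus lower in the deeper list, and the part of depth was not tested. Within a member, the highest fold over the 8 lists was a median of 1.37 times the lowest, and 377 of the 421 stayed within 2 times. The spread was narrower at high background, with a median ratio of 1.28, than at low background, with 1.82. Spearman's rho of fold between V5 lists over the 421 members ran between 0.885 and 0.948 for the 28 pairs of lists. Against RB fold it ran between 0.810 and 0.846 in C4-2 (354 members) and between 0.642 and 0.697 in VCaP (142 members). The lists share genome, mapping and caller, and members in a cluster share repeats, so these are descriptions only. Among members of low background, rho between V5 lists was 0.463 to 0.797.

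**Figure D4:**
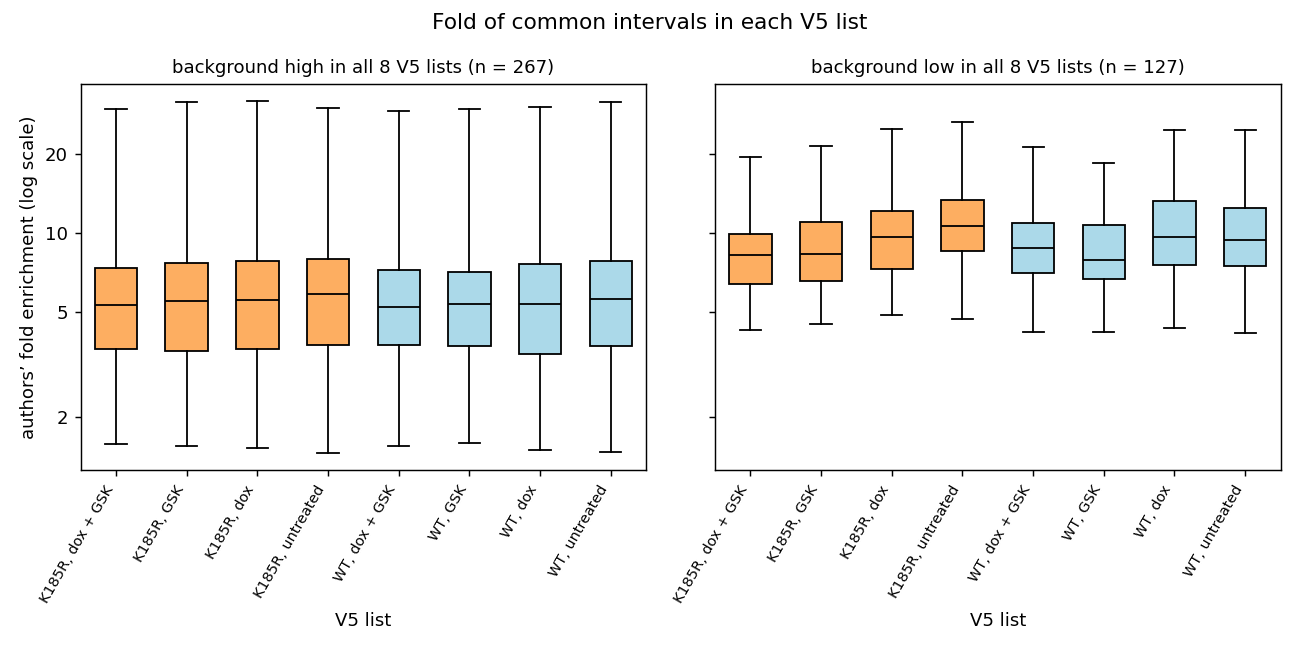
Authors' fold enrichment (vertical axis, log scale) of the 267 members of high background (left) and the 127 of low background (right) in each V5 list. Boxes give the quartiles and median, whiskers the lowest and highest member. High-background medians lie between 5.25 and 5.85 in all 8 lists, and low-background medians between 7.88 and 10.7.

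The comparison with GSK turned on the scale. Among the 127 low-background members, the median fold was 8.28 in K185R with doxycycline and GSK against 9.69 with doxycycline, and 8.33 with GSK against 10.7 untreated. In WT it was 8.78 with doxycycline and GSK against 9.63 with doxycycline, and 7.88 with GSK against 9.42 untreated. Fold was lower with GSK in all 4 pairs of medians, and 108 of the 127 members had a lower mean fold over the GSK lists. The GSK lists are also the shallower list of each pair, and fold has 1 read added to both its terms, so it depends on depth. On summit reads divided by the floor, a measure of depth, the GSK medians were the higher in all 4 pairs. These were 75.4 against 74.4, 66.6 against 66.1, 77.6 against 65.7, and 79.2 against 76.9 times the floor in the same order of pairs. In the first of these pairs 79 of the 127 members were nevertheless lower with GSK. No direction with GSK is therefore given for these members. Every member had to be called in each list, and the same reads over a smaller floor give a higher value. The floor was 0.139 reads in WT with GSK and 0.195 in WT untreated, so this scale is not free of depth either. The part of depth in the lower fold was not tested, nor that of the membership rule in the reads over the floor.

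With so many reads, the strongest members also approached a limit. If each start position counts once per strand, a summit can hold at most 2 reads for each base of the fragment length, which is the smallest interval width of a list. The highest summit of a list reached 92.4% to 99.3% of that number in the 8 V5 lists, 100% in C4-2 RB and 99.8% in VCaP RB. At least 50% of it was reached by 17 to 52 of the 421 members, depending on the V5 list, and by none of the 127 of low background. Whether duplicate reads were removed is not given in the sources used here. Near such a limit, summit reads cannot scale with depth.

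The highest mean fold belonged to a member on chromosome 3 at 196625527 to 196625880. Its fold was 29.6, 31.4, 31.7 and 30.0 in K185R with doxycycline and GSK, GSK, doxycycline, and no treatment. In WT it was 29.0, 29.6, 30.2 and 31.6 in the same order. The K185R and WT values overlapped, while 3 of the 4 values with GSK were below all 4 without it, by little. RB fold there was 37.4 in C4-2 and 15.7 in VCaP. The second, on chromosome 9 at 44070579 to 44070896, ran between 26.7 and 31.6 in the V5 lists, with RB folds of 35.8 in C4-2 and 13.8 in VCaP. Next came chromosome 10 at 98561235 to 98561639 (19.6 to 27.8), chromosome 9 at 72652997 to 72653544 (20.6 to 25.3), chromosome 7 at 61055538 to 61055929 (21.1 to 25.2) and chromosome 9 at 42415916 to 42416209 (16.2 to 24.6). These last 4 overlapped C4-2 RB and no VCaP RB interval. The one on chromosome 7 lay 0.979 kb from a stretch, and the other 5 lay beyond 1 Mb.

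At the other extreme, the 4 members of highest background all lay on chromosome 16 between 46391285 and 46405652, next to its 11.1 Mb stretch. The first of them, at 46391285 to 46391694, had 249 summit reads in the untreated WT list over a background of 829 times the floor. Its fold was only 1.69, 1.54, 1.52 and 1.46 in the K185R lists with doxycycline and GSK, GSK, doxycycline, and no treatment. In WT its fold was 1.58, 1.60, 1.50 and 1.54 in the same order. Such members had many reads and little fold.

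The low-background members of highest fold were, with 1 exception, on chromosome 9. After the one at 42415916 to 42416209, named above, they were 42818982 to 42819282, 78790015 to 78790297, 70327351 to 70327640 and 70076608 to 70076897. The exception lay on chromosome 18 at 50319028 to 50319336. Its fold was 16.1, 19.4, 24.9 and 25.9 in K185R with doxycycline and GSK, GSK, doxycycline, and no treatment, and 14.2, 14.2, 24.7 and 19.1 in WT. Its highest value with GSK, 19.4, was just above its lowest without, 19.1. All 6 overlapped C4-2 RB and none overlapped VCaP RB.

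Of the 127 low-background members, 47 met neither RB list. In the untreated WT list their median fold was 7.97 on 10 summit reads. It was 11.2 on 18 reads for the 60 low-background members meeting C4-2 RB only, and 9.26 on 15 for the 18 meeting both. The median fold of the 47 was below that of the 60 in all 8 V5 lists. The strongest of the 47 lay on chromosome 21 at 32114580 to 32114875. Its V5 folds were 17.6, 15.1, 18.2 and 17.0 in K185R and 14.5, 15.9, 20.5 and 15.7 in WT, in the order of treatments above. It was thus as strong as many members with RB, at 21 to 32 summit reads per list. The next lay on chromosome 2 at 236211300 to 236211573 (fold 11.5 to 20.2), chromosome 4 at 65139691 to 65139969 (8.82 to 21.4) and chromosome 21 at 15563332 to 15563613 (10.2 to 21.4).

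The 18 low-background members that met both RB lists were the only class described here with a lower median fold ratio of K185R over WT (log2 of −0.10 over the 18, against 0.03 over all 421), and it rested on a few of them. By fold, 10 of the 18 were lower in K185R and 8 higher. On summit reads over the floor the median log2 ratio was −0.32 for the 18 and −0.08 for all 421, so the direction over the whole set flips with the scale. The 3 members with the lowest K185R to WT ratio among all 421 were all of this class, as were 6 of the lowest 10 and 8 of the lowest 20. Others of the class ranked toward the other end, at 384, 395, 400, 409 and 413 of 421 from the lowest. The class is 18 of 421 members, and 18 of the 127 of low background, where fold varied more between lists. Fold stayed within 2 times over the 8 lists in 87 of those 127, against 265 of the 267 of high background. No test was made.

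The lowest ratio was on chromosome 1 at 174968981 to 174969203, with a log2 difference of −1.13. Its fold was 4.89, 4.88, 7.19 and 5.43 in K185R with doxycycline and GSK, GSK, doxycycline, and no treatment. In WT it was 12.9, 11.9, 9.14 and 15.2 in the same order. Every K185R value was below every WT value, on 5, 5, 8 and 6 summit reads in K185R and 21, 16, 11 and 23 in WT. RB fold there was 7.95 in C4-2 and 6.48 in VCaP.

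The second was on chromosome 3 at 67704950 to 67705183, with a log2 difference of −0.71. Its fold was 5.04, 8.58, 5.05 and 6.90 in K185R and 12.8, 13.6, 8.49 and 7.25 in WT, on 5 to 10 and 8 to 19 summit reads. Here the groups overlapped. The third was on chromosome 14 at 105218895 to 105219301, with a log2 difference of −0.66, and fold of 5.70, 4.81, 5.31 and 5.50 in K185R and 14.2, 7.41, 6.34 and 7.47 in WT. All 4 K185R values were below all 4 WT values there, though the WT list with doxycycline and GSK stood far above the other WT lists. Summit reads were 6, 5, 6 and 6 in K185R and 24, 9, 7 and 9 in WT. In the K185R lists these 3 members had between 5 and 10 summit reads, where the median over any of these lists was 5. No replicate shows whether such a difference would recur.

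**Figure D5:**
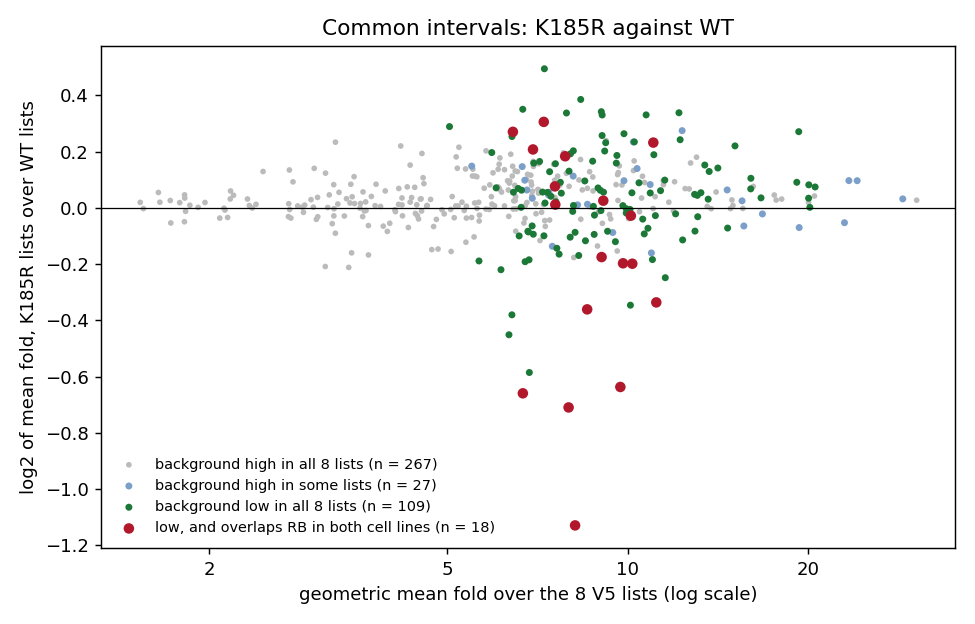
Log2 of the geometric mean fold in the 4 K185R lists over that in the 4 WT lists (vertical axis) against the geometric mean fold over the 8 V5 lists (horizontal axis, log scale), 1 point per member. Most points lie near 0, and the lowest 3, between −0.66 and −1.13, are low-background members that overlap RB in both cell lines.

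The members of this class with the highest fold varied in this respect. On chromosome 12 at 13153157 to 13153400, fold was 7.44, 9.72, 11.5 and 11.7 in K185R and 14.6, 17.1, 10.6 and 9.42 in WT, so only the WT lists with GSK stood above all K185R lists. On chromosome X at 155259976 to 155260456, at the chromosome end, fold was 11.0, 11.1, 9.96 and 16.9 in K185R and 10.8, 9.45, 9.70 and 10.9 in WT. On chromosome 1 at 91852759 to 91853139, fold was 8.08 to 12.1 in K185R and 9.24 to 12.9 in WT, so the groups overlapped. There the RB folds, 21.5 in C4-2 and 17.7 in VCaP, were above every V5 fold. On chromosome 6 at 18264720 to 18265028, all 4 K185R folds (5.88 to 9.05) were below all 4 WT folds (10.9 to 14.5). Its log2 difference, −0.64, came next after the 3 lowest.

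In summit reads over the floor, the 18 members differed with GSK in WT. With doxycycline and GSK the median was 103.5 times the floor, against 55.5 with doxycycline, and it was higher in 18 of 18 members. Over all members in that pair it was higher in 306 of 421, and in 87 of the 127 of low background. With GSK alone the median was 108.0 against 76.9 untreated, and higher in 12 of 18, against 250 of all 421 and 71 of the 127. In K185R it was 69.1 with doxycycline and GSK against 69.1 with doxycycline, and 58.2 with GSK against 60.6 untreated. On the fold scale the same WT pairs gave medians of 9.19 against 8.49, and 7.98 against 9.26. By member, fold was higher with GSK in 10 of 18 and lower in 8 in the first pair, and 7 and 11 in the second. The scales therefore differ in direction for the second pair, and fold was near even in the first. Depth in these WT pairs was 0.810 with GSK against 1.40 without, and 0.716 against 1.21 reads per kb. The part of depth was not tested. These 18 members too had to be called in each GSK list, and the part of that rule was not tested. The difference between WT and K185R was not tested either.

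The ratio of K185R over WT was highest at 3 low-background members that met neither RB list. The highest was on chromosome 5 at 90446070 to 90446233, with folds of 8.02, 8.24, 10.2 and 8.15 in K185R and 5.04, 6.39, 7.61 and 5.71 in WT. Its K185R values were all above its WT values, on 9 to 12 summit reads in K185R and 5 to 9 in WT. The others lay on chromosomes 10 (85087542 to 85087825) and 15 (30465305 to 30465544), where K185R and WT folds overlapped.

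The ratio with over without GSK was highest on chromosome 8 at 141521912 to 141522170, by fold 8.38 with doxycycline and GSK against 10.1 with doxycycline in K185R, and 13.3 with GSK against 6.33 untreated. In WT the pairs were 13.8 against 7.15 and 14.0 against 8.86. It was higher with GSK in 3 of the 4 pairs, and it too met both RB lists at low background. The ratio was lowest on chromosome 2 at 5162688 to 5163082, where fold was 10.4 with doxycycline and GSK against 16.1 with doxycycline in K185R, and 4.95 with GSK against 13.6 untreated. In WT the pairs were 10.4 against 11.6 and 9.64 against 16.3, so all 4 were lower with GSK.

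With doxycycline, the highest ratio was on chromosome 8 at 97184291 to 97184561. Its fold was 10.6 with doxycycline and GSK against 4.88 with GSK in K185R, and 15.8 with doxycycline against 11.7 untreated. In WT the pairs were 9.81 against 6.87 and 15.1 against 9.83, so all 4 were higher with doxycycline. The untreated K185R value exceeded the WT value with doxycycline and GSK, so the lists with and without doxycycline overlapped. The lowest ratio was that of the mitochondrial member described above.

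The limit of membership was set by the short lists. The weakest interval of a member, by −log10 q, was in the WT GSK list for 146 members, in WT with doxycycline and GSK for 90 and in K185R with doxycycline and GSK for 85. Just inside lay a member of chromosome 12 (119145862 to 119146022) and one of chromosome 11 (107460989 to 107461220), with lowest −log10 q of 2.00 and 2.06, both in the WT GSK list. Just outside lay 165 intervals held by 6 of the other 7 lists. The missing list was WT with GSK for 66 of them and K185R with doxycycline and GSK for 51. The strongest of these, on chromosome 3 (183797618 to 183797891), had 19 summit reads and a fold of 12.9 in the untreated WT list. The next, on chromosome 5 (71146684 to 71146963), had 18 summit reads and a fold of 12.0. Both were missing from the K185R list with doxycycline and GSK, and both overlapped C4-2 RB and not VCaP RB. Both were stronger in the untreated WT list than the members just inside, which had folds of 4.43 and 6.69 on 5 and 7 summit reads.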

How the data were processed

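The members and lists were chosen with earlier results of these data known. Per the submitters' processing notes, FastQC 0.11.9, BWA 0.7.9a, SAMtools 1.2, MACS2 2.1.0 and the build hg19 were used. Settings, duplicate removal and the use of a control are not given. The authors deposited 1 interval list per group with a fold enrichment (a linear ratio), −log10 p value, −log10 q value (used as a score to rank intervals) and summit position for each interval. V5 interval names include the word merged, and C4-2 RB interval names carry 1 library's name.

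Coordinates are hg19, counted from 1. Overlap needed 1 base. Where several intervals of a list overlapped a member, the one of highest fold stood for it. Summit reads n and background b were solved from the deposited fold, (n + 1) over (b + 1), and the Poisson −log10 p. On simulated intervals, 1000 per list, 100% of summit reads were recovered. High background was at least 10 times the floor. Regions were named by fixed ranks: highest mean fold, highest background, highest fold at low background with both or neither RB list, extreme ratios for each factor, and the edges of membership. Python 3.11.15, NumPy 2.4.6, pandas 2.3.3, SciPy 1.17.1 and matplotlib 3.10.9 were used. The lists name no genes, so genes, promoters and sequences were not analysed here. No test was made, since membership used the V5 lists and each group has 1 list. Alternatives varied the overlap rule, q threshold, required lists, starting list, background limit and definition of a stretch. The background classes over all 8 lists, the chromosome-end class and the summit limit were chosen after seeing the data.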

Additional observations from a re-analysis of the deposited data

Results flagged for a closer look

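Some class medians differed between lists with and without doxycycline in opposite directions in K185R and WT, in both pairs of lists of each. These differences were not tested, and with 1 list per group there is no replicate to test them on. Among the 127 low-background members, the median fold in K185R was 8.28 with doxycycline and GSK against 8.33 with GSK, and 9.69 with doxycycline against 10.7 untreated. In WT it was 8.78 with doxycycline and GSK against 7.88 with GSK, and 9.63 with doxycycline against 9.42 untreated. By fold the K185R medians were thus lower with doxycycline and the WT medians higher. By member, K185R fold was higher with doxycycline in 51 of 127 in the pair with GSK and 31 without. In WT it was higher in 75 and 68 of 127 in that order. In the WT pair without GSK it was higher in 35 of 47 members meeting neither RB list. There it was higher in 28 of 60 meeting C4-2 RB only and 4 of 18 meeting both.

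On summit reads over the floor the directions of the medians were the other way round. In K185R the medians were 75.4 with doxycycline and GSK against 66.6 with GSK, and 74.4 with doxycycline against 66.1 untreated. In WT they were 77.6 with doxycycline and GSK against 79.2 with GSK, and 65.7 with doxycycline against 76.9 untreated. Member by member, the pairs with GSK had no clear direction on this scale: with doxycycline, 63 were higher and 64 lower in K185R, and 62 higher and 65 lower in WT. In the pairs without GSK, 83 of 127 were higher in K185R and 44 of 127 in WT. For the 18 low-background members that met both RB lists, the K185R medians were 69.1 with doxycycline and GSK against 58.2 with GSK, and 69.1 with doxycycline against 60.6 untreated. In WT they were 103.5 with doxycycline and GSK against 108.0 with GSK, and 55.5 with doxycycline against 76.9 untreated. List depth also differed between the lists of each pair. In K185R it was 0.838 reads per kb with doxycycline and GSK against 1.02 with GSK, and 1.12 with doxycycline against 1.79 untreated. In WT it was 0.810 reads per kb with doxycycline and GSK against 0.716 with GSK, and 1.40 with doxycycline against 1.21 untreated. The K185R lists were thus shallower with doxycycline and the WT lists deeper, and the part of depth in the opposite directions was not tested.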

How the results depend on the processing

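No paired analysis was possible because each group has 1 list that stands for all its libraries. Leaving out each of the other 7 V5 lists gave 421 to 487 common intervals, with 81.3% to 84.2% meeting C4-2 RB, 30.8% to 33.8% VCaP RB and 56.4% to 59.4% near a stretch. Starting from each other list gave 419 to 424. With overlaps of at least 50% of both intervals, 70.2% met C4-2 RB and 26.2% VCaP RB. With summits within 100 bases, 24.4% met VCaP RB. At a −log10 q of at least 5 in every V5 list, with the RB lists left whole, 91.5% met C4-2 RB and 65.7% lay near a stretch. Without untreated WT intervals of high background, 143 members were left, with 65.0% meeting C4-2 RB, 15.4% VCaP RB and 15.4% near a stretch. That setting takes out the members of high background by construction, and for the other moves the cause was not tested.

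Within 250 kb of a stretch lay 38.0% of members (2.97% of the whole list), and within 5 Mb 71.0% (11.5%). Leaving out intervals within 10 kb of a stretch, added after seeing the data, gave 54.4%. With stretches of at least 2.5 Mb taken from the RB lists alone, also added after seeing the data, it was 60.1% against 12.6% of the whole list. Background at 5 and 20 times the floor was met by 76.2% and 52.0%. By number of other lists, the C4-2 RB share at 50% overlap was 1.32% for 0, 29.7% for 4, 38.4% for 5 and 70.2% for 7, and by summits 1.67% for 0 and 53.2% for 5.

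Without high background, the median fold in K185R was 8.31 with doxycycline and GSK, 8.47 with GSK, 9.77 with doxycycline and 10.7 untreated, and in WT 8.78, 7.89, 9.64 and 9.44 in that order. As summit reads over the floor, the medians over all members were 213.6, 216.4, 233.8 and 179.9 in K185R and 226.4, 215.9, 201.4 and 220.5 in WT. The promoter share could not be computed, since no hg19 annotation was used here. Depth limits the low-background members, whose median summit reads in the untreated WT list were 15.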
